A study of Mus musculus with 12 samples.

Results

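The 4 regions described here are large blocks of mouse olfactory receptor (Olfr) genes in the mm10 genome. They are 1 window on chromosome 2 (chr2:85100000-90500000), a first window on chromosome 7 (chr7:102400000-105000000) that holds the class I receptors, a further window on chromosome 7 (chr7:106300000-108900000) with class II receptors, and 1 window on chromosome 9 (chr9:37700000-40300000). An interaction anchor, which is a stretch of restriction fragments where the reads of a library pile up, belonged to a window if its midpoint lay inside it. This rule took 1074 of the 248300 anchors of the ESC Hi-C library and 999 of 246179 in NCC. In FGFR1 HiChIP it took 836 of 203669 anchors in ESC and 1053 of 227624 in NCC, and in CTCF HiChIP 729 of 169069 and 698 of 168031. The windows cover 13.2 Mb and were compared with the 3 Mb on each side of them (the flanks, 19.3 Mb in all, with 2311 anchors in ESC Hi-C and 2326 in NCC Hi-C). The short stretch between both chromosome 7 windows counts as a flank of each.

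The libraries came from the mouse embryonic stem cell line E14Tg2A. ESC were kept with leukemia inhibitory factor (LIF), and NCC, neuronal committed cells, were the same line after 48 hours in 1 μM retinoic acid without LIF. Hi-C and HiChIP, with antibody ab10646 against FGFR1 or ab70303 against CTCF, gave 6 libraries, in each of which the authors merged 2 replicates, so each is 1 pooled library of 1 cell line with no replicate error. The 95% intervals given here cover counting error only, and tests on read counts set 1 pool against another rather than the cell types; no RNA was analysed, so cell identity was not checked against marker genes.

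Olfactory receptors are G protein-coupled receptors that detect odorants on sensory neurons of the nose, and their genes form the largest gene family of the mouse. The genes are short, arose by local duplication and lie in AT-rich blocks among which pseudogenes and a few unrelated genes are scattered. In a mature olfactory neuron a single receptor allele is active while the silent clusters gather in heterochromatin, and contacts between clusters of different chromosomes are known from those neurons. Class I receptors, related to the receptors of fish, occupy a single locus around the beta-globin genes. CTCF is a zinc finger protein that binds a specific motif and holds the bases of many chromatin loops, and FGFR1 is a growth factor receptor with a nuclear form.

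The 4 windows held 626 of the 1407 annotated Olfr genes, of which 503 are protein-coding and 123 are pseudogenes. There were 287 on chromosome 2, 136 in the class I window, 80 in the class II window of chromosome 7 and 123 on chromosome 9. Another 50 protein-coding genes lie among them, whereas the flanks held 22 Olfr genes and 260 other protein-coding genes. GC content was 38.5% in the windows, 43.7% in the flanks and 41.8% in the genome (chromosomes 1 to 19 and X). CpG dinucleotides were present at 5.41 per kb, against 9.26 in the flanks. GATC, the cut site that bounds the anchors, was found 2.74 times per kb in the windows and 2.53 times in the flanks. Of all 75-base words starting in the windows, 88.1% occurred once in the genome, against 93.7% in the flanks.

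Matches to the 12-base core of the CTCF consensus, searched on both strands of GRCm38, were sparse in the receptor blocks. The windows held 34 matches (2.58 per Mb), the flanks 138 (7.17 per Mb) and the genome 12728 (4.97 per Mb). By window there were 10 on chromosome 2, 11 each in both chromosome 7 windows and 2 on chromosome 9. Of the 132 bins of 100 kb in the windows, 18.9% held a match, against 43.5% of the 193 flank bins and 34.0% of all bins. With all bins ranked by GC content into 5 equal groups, 12.5% of the lowest group did, and 21% of the second. A match is only a run of letters, and 12 of the 34 lay in a CTCF HiChIP anchor in ESC, 13 in NCC and 7 in both. Another 7 lay in no anchor of any of the 6 libraries.

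The 7 matches inside a CTCF HiChIP anchor in both cell types are printed first, as the positions where sequence and capture met in each cell type. Each is shown on the strand of the match, 5′ to 3′, with 9 bases on either side in lower case and the 12-base core in capitals, and with its GRCm38 (mm10) position. The anchors over them held between 5 and 33 ends, an end being one side of a counted read pair.
Ptprj, overlapping the gene (chr2:90474908-90474937, plus strand): caactgtgtCCACTAGGGGGCagtagcaaa
Trim30c, overlapping the gene (chr7:104390227-104390256, plus strand): ctcacaaacCCAGCAGATGGCcatcctgtc
Olfr671, 181 bp from the gene (chr7:104972695-104972724, minus strand): gattatgctCCAGTAGATGGCcctatgcaa
Ppfibp2, first match (chr7:107661387-107661416, plus strand): tttgagaagCCAGTAGGTGGCaggcagtga
Ppfibp2, last match (chr7:107748173-107748202, minus strand): agagacagtCCACTAGGGGGCggtgtttga
Ovch2, 1707 bp from the gene (chr7:107779817-107779846, minus strand): ttctattggCCACTAGAGGGCacatttagc
Olfr514, 10056 bp from the gene (chr7:108814989-108815018, plus strand): attcttgaaCCACCAGGTGGCagtgtgaat

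The first Ppfibp2 match lay under the largest of these CTCF anchors, with 33 ends in ESC and 29 in NCC. The Trim30c anchor held 25 and 11 ends, the Ptprj anchor 10 and 12, the Olfr671 anchor 10 and 10, and the Olfr514 anchor 13 and 11. The nearest gene is an olfactory receptor at only 2 of the 7 positions, Olfr671 and Olfr514. The other 5 lie in or beside the unrelated genes at the edges of, or in islands within, the receptor arrays.

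A second set shows how duplicated genes carried near-identical matches with unlike counts. The Trim genes of the class I window encode a family of RING-finger proteins, several of which restrict viruses, and 6 of their copies carried the motif.
Trim5 (chr7:104279376-104279405, plus strand): ctcacaaagCCAGCAGATGGCcatcatgtc
Trim12a (chr7:104306975-104307004, plus strand): ctcacaaagCCAGCAGATGGCcatcatgtc
Trim12c (chr7:104347991-104348020, plus strand): ctcacaaagCCAGCAGATGGCcatcatgtc
Trim30b (chr7:104365820-104365849, plus strand): ctcacaaacCCAGCAGATGGCcatcatgtc
Trim30d (chr7:104487639-104487668, plus strand): cttacaaagCCAGCAGATGGCcatcatgtc
Olfr469, 920 bp from the gene (chr7:107819626-107819655, minus strand): aatatctcaCCACTAGGGGGCtctgttaca
Olfr470, 983 bp from the gene (chr7:107841902-107841931, minus strand): aatgtctcaCCACTAGGGGGCtctgttaca

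All 30 bases were identical between Trim5, Trim12a and Trim12c, and 29 of 30 were shared by Trim5 and Trim30b. In CTCF HiChIP the match in Trim30c lay in an anchor of 25 ends in ESC and 11 in NCC, that in Trim12c in an anchor of 3 ends in ESC, and that in Trim30b in an anchor of 6 ends in NCC. The matches in Trim5, Trim12a and Trim30d lay in no CTCF anchor. Both receptor copies, Olfr469 and Olfr470, shared 29 of 30 bases and were in CTCF anchors of 2 ends (NCC only) and 4 ends (ESC only). Reads from copies this alike may not be placed uniquely: of the 75-base words of Trim5, 59.7% occurred once in the genome, of Trim12a 87.4% and of Trim30c 97.4%.

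In Hi-C the receptor windows carried few interaction ends in both cell types. Interaction anchor strength, given as ends per kb, came to 6.22 in ESC and 5.22 in NCC, while the flanks had 22.4 and 24.1 and the genome 16.2 and 16.6. The windows were thus at 0.277 times the level of the flanks in ESC and 0.217 times in NCC (log2 -1.85 and -2.21). Anchors were both fewer and weaker. There were 81.4 anchors per Mb in ESC and 75.7 in NCC against 120 and 121 in the flanks, they covered 24.9% and 21.9% of the windows against 43.4% and 44.5% of the flanks, and an anchor held 76.4 and 69.0 ends on average against 187 and 199. With the same measurement in the enriched libraries the difference was smaller, with log2 ratios of windows to flanks of -1.15 (ESC) and -0.92 (NCC) for FGFR1 HiChIP and -1.10 and -1.2 for CTCF HiChIP. The 1-library design allows no test of these differences.

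Each of the 4 windows was below its own flanks, and they differed among themselves. The chromosome 2 window had 4.36 ends per kb in ESC and 3.43 in NCC, lying between a left flank at 10.7 and 10.4 and a right flank at 37.0 and 38.3. The class I window had 5.46 and 5.29, with 29.9 and 33.2 to its left and 10.6 and 11.4 in the stretch between both chromosome 7 windows. The class II window of chromosome 7 was the strongest, at 9.43 and 7.53, and to its right were 24.4 and 27.3. The chromosome 9 window had 7.63 and 6.56, between 15.7 and 17.6 on the left and 21.8 and 23.0 on the right. The log2 ratio to the flanks was -2.45 and -2.83 for chromosome 2, -2.15 and -2.34 for class I, -1.11 and -1.59 for class II on chromosome 7, and -1.30 and -1.63 for chromosome 9. In bins of 100 kb the 132 window bins ran from 0 over a median of 5.48 to 30.8 ends per kb in ESC, and from 0 over 4.32 to 24.1 in NCC, while the medians of the flank bins were 21.7 and 23.7. The ranges of window and flank bins overlapped.

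**Figure D1:**
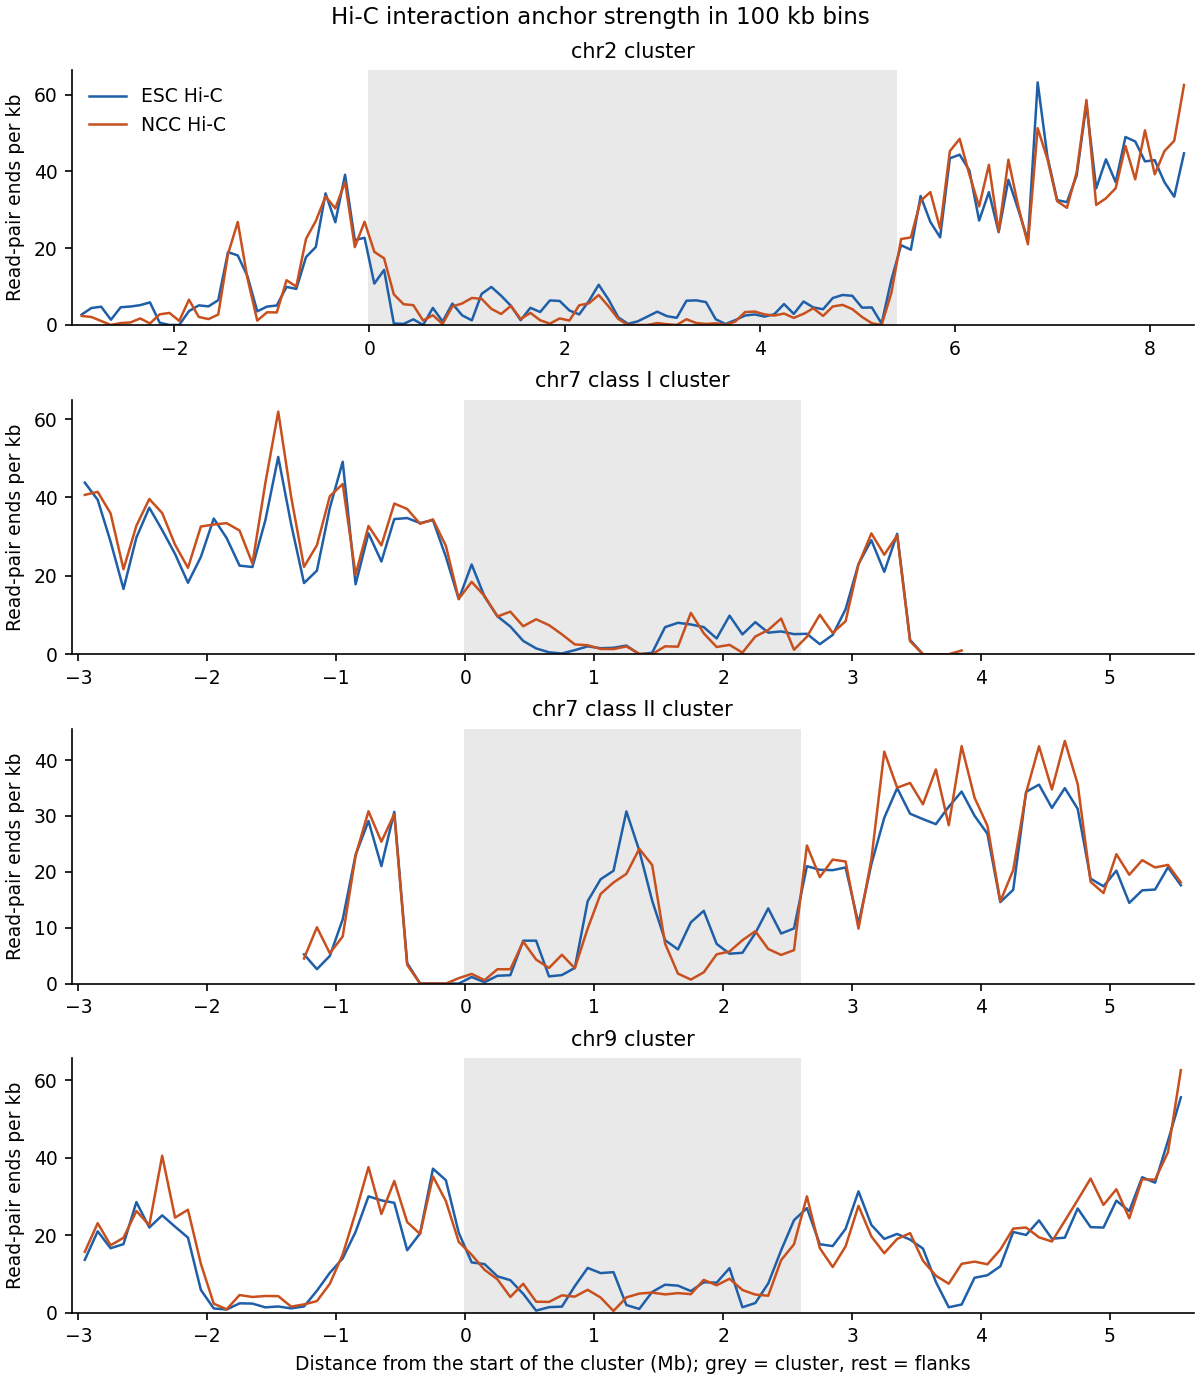
Hi-C ends per kb in 100 kb bins along each of the 4 receptor windows and their 3 Mb flanks, in ESC and in NCC; the horizontal axis is the position relative to the window. Inside the windows most bins lie under the flank medians of 21.7 (ESC) and 23.7 (NCC) ends per kb, with islands of higher bins such as the one at Syt9 and Ppfibp2 in the class II window of chromosome 7.

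Within the windows, strength followed the kind of gene a bin held. The 91 bins with olfactory receptor genes and no other protein-coding gene had 4.92 ends per kb in ESC and 3.92 in NCC. The 27 bins with both kinds of gene had 6.85 and 5.93, and the 10 bins with other protein-coding genes only had 17.2 and 15. Their GC content also differed, at 37.6%, 39.7% and 42.7%, and the parts of gene content and GC were not separated. The 4 bins without either kind of gene had 4.28 and 5.56 ends per kb. The strongest bin of each window in ESC was at an edge or in an island of other genes. On chromosome 2 it was the gene-free bin beside Lrrc55 (chr2:85200001-85300000) with 1433 ends in ESC and 1736 in NCC. In the class I window it was the bin of Stim1, a calcium sensor of the endoplasmic reticulum, and Rrm1, a subunit of ribonucleotide reductase (chr7:102400001-102500000, 2290 and 1846 ends). That bin also held 3 Olfr genes, Olfr543 to Olfr545. In the class II window of chromosome 7 the strongest bin held Syt9, Olfml1 and Ppfibp2 (chr7:107500001-107600000, 3080 and 1962 ends). On chromosome 9 it held Zfp202, the sodium channel subunit gene Scn3b and Gramd1b (chr9:40200001-40300000, 2391 and 1770 ends).

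The weakest bins were receptor arrays or empty of genes. The 11 Olfr genes from Olfr999-ps1 to Olfr1008 (chr2:85600001-85700000) lay in a bin with no called anchor in ESC Hi-C and 115 ends in NCC. The 8 from Olfr260-ps1 to Olfr67 (chr7:103700001-103800000), next to the globin genes, lay in a bin with no called anchor in ESC and 12 ends in NCC. A gene-free bin of the class II window (chr7:106400001-106500000) had 24 and 61 ends, and the bin from Olfr893 to Olfr896-ps1 on chromosome 9 (chr9:38200001-38300000) had 57 and 287.

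Bins of low GC content elsewhere in the genome were weak as well. Of the 132 window bins 70 fell in the lowest of the 5 GC groups, 39 in the second, 13 in the third, 10 in the fourth and none in the highest. In the lowest group the windows had 4.13 ends per kb in ESC and 3.30 in NCC, against 3.17 and 2.81 in bins outside the windows. In the second group they had 6.03 and 5.11 against 6.43 and 6.21, in the third 9.88 and 7.67 against 11.6 and 11.8, and in the fourth 16.8 and 15.9 against 20.7 and 21.5. Above the lowest group the windows were thus under the level of other bins in both cell types.

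**Figure D2:**
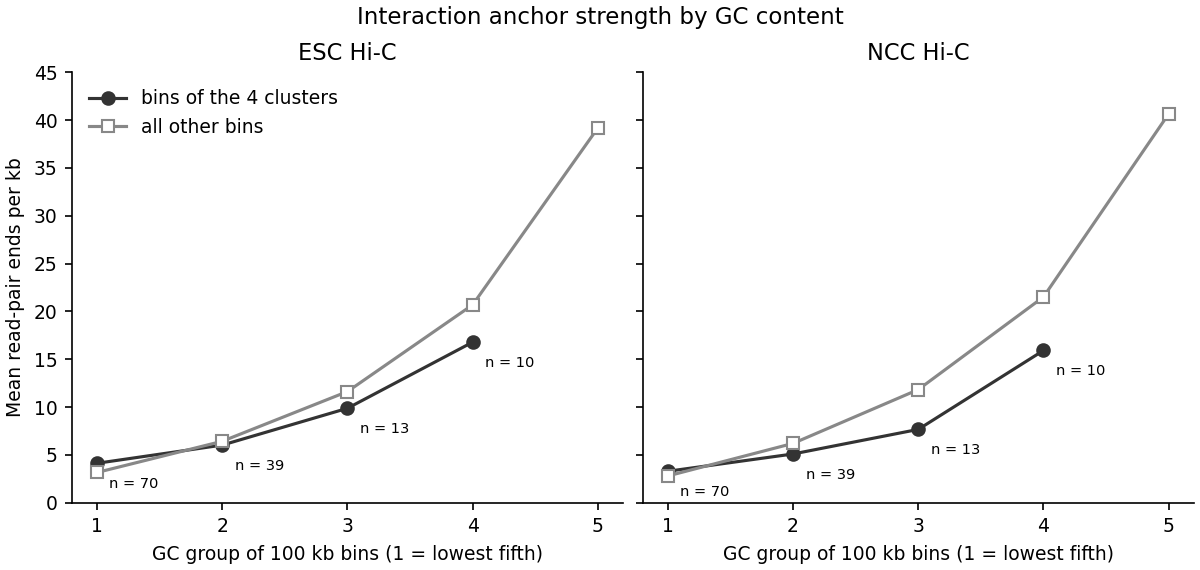
Hi-C ends per kb of 100 kb bins in 5 equal groups by GC content, for bins inside the 4 receptor windows and for all bins outside them, in ESC and in NCC. Levels climb with GC content in both sets, from 4.13 (windows) and 3.17 (outside) in the lowest group to 16.8 and 20.7 in the fourth in ESC; no window bin falls in the highest group.

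Gene by gene, many receptors lay in no anchor at all. Counted over each gene and 2.5 kb on either side, the median of the 626 Olfr genes was 3.55 Hi-C ends per kb in ESC and 2.32 in NCC. Olfr genes elsewhere in the genome had medians of 5.06 and 3.85, the other protein-coding genes of the windows 7.35 and 6.29, and all protein-coding genes 26.3 and 26.9. Vomeronasal receptor genes, a separate chemoreceptor family, were lower still, at 0.44 and 0. No anchor was found at 254 Olfr genes (40.6%) in ESC and 279 (44.6%) in NCC, against 10.4% and 10.9% of all protein-coding genes. That background was not matched for gene length or GC content. Receptor genes are short, and a longer gene has more room to meet an anchor. An anchor was present in both Hi-C libraries at 263 of the 626, in ESC alone at 109, in NCC alone at 84 and in neither at 170, and 42 had none in any of the 6 libraries. Genes with and without a Hi-C anchor were alike in unique 75-base words (97.9% and 97.3%) and in GC content (36.6% and 35.8%).

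The median of the chromosome 2 receptors was 2.36 ends per kb in ESC and 0 in NCC, where 162 of the 287 had no anchor (129 in ESC). In the class I window the medians were 2.95 and 3.54, in the class II window of chromosome 7 they were 6.65 and 4.44, and on chromosome 9 they were 5.15 and 4.84. The receptor gene with the most ends per kb in ESC was the pseudogene Olfr515-ps1, with 165 ends in ESC and no called anchor in NCC. Protein-coding receptors near the top were Olfr1053 (169 ends in ESC and 96 in NCC), Olfr913 (233 and 114), Olfr919 (295 and 82) and Olfr1052 (290 and 103). All 5 were lower in the NCC library, but they were picked for a high ESC value.

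Genes of other families stood apart from the receptors around them in both directions. None of the 5 beta-globin genes Hbb-bt, Hbb-bs, Hbb-bh2, Hbb-bh1 and Hbb-y lay in an anchor of any of the 6 libraries, and the share of unique 75-base words over them ran from 80.2% at Hbb-bt to 99.9% at Hbb-y. Of the 12 Trim genes, 10 had a Hi-C anchor in ESC and 9 in NCC, and Trim5 and Trim12a had none in any library. Syt9, a synaptotagmin, had 4374 Hi-C ends in ESC and 3471 in NCC, and Ppfibp2, a liprin, had 3649 and 4099. Rrm1 had 796 and 399, Scn3b 942 and 787, the zinc finger gene Zfp202 859 and 610, and Olfml1 752 and 499. At the left edge of the chromosome 2 window Lrrc55 had 237 ends in ESC and 788 in NCC, and Aplnr, the apelin receptor, 213 and 292.

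Relative to the library totals, the windows had fewer Hi-C read pairs in NCC than in ESC, while their flanks had slightly more. Read pairs with at least 1 end in the windows numbered 54048 in ESC and 46972 in NCC, which is -0.24 as the log2 of NCC over ESC (95% interval -0.25 to -0.22). The flanks had 0.09. On chromosome 2 there were 15453 and 12652 read pairs (log2 -0.32, -0.36 to -0.29), in the class II window of chromosome 7 15813 and 13183 (-0.30, -0.33 to -0.26), and on chromosome 9 13306 and 11738 (-0.21, -0.25 to -0.18). The class I window differed least, with 9666 and 9602 (-0.04, -0.08 to -0.00). These intervals leave out the spread between cultures, which the merged tables do not hold. Part of the anchors was called in 1 cell type only: 694 of the 1074 ESC anchors of the windows (64.6%) overlapped an NCC anchor, against 86.5% in the flanks. Over shared anchors alone the log2 ratio was -0.21 in the windows and 0.08 in the flanks.

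In bins of 100 kb the NCC library was lower by at least 1.5-fold in 48 of the 127 window bins with 50 or more ends (37.8%), a difference found in 17% of all bins, and higher in 28 (22.0%), against 13.1% of all bins. The median log2 ratio of the window bins was -0.28, that of the flank bins 0.07 and that of all bins -0.01. Of 190 flank bins 13 were lower and 16 higher. Beside bins of the same GC content the counts were nearer in the lowest and second groups, which hold most window bins. In the lowest GC group 43.3% of window bins were lower and 23.9% higher, against 41.6% and 26.4% outside, and in the second group 31.6% and 26.3% against 29.2% and 21.2%. They were not nearer in the third group, where 6 of 12 window bins were lower (50%, against 13.9% outside) and 8.33% higher (against 13.2%). In the fourth, of 10 window bins 10% were lower and 10% higher, against 4.34% and 5.93%. The summed level of the windows was lower relative to bins of the same GC content, with log2 ratios of -0.36, -0.27, -0.40 and -0.11 in the first to the fourth GC group, against -0.21, -0.08, -0.01 and 0.02 outside the windows.

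The bins that differed most held receptor arrays only, or receptors with 1 other gene. From Olfr922 to Olfr928-ps1 on chromosome 9 (chr9:38800001-38900000) there were 1050 Hi-C ends in ESC and 49 in NCC (log2 -4.45). The bin of Olfr478 to Olfr482 (chr7:108000001-108100000) had 1095 and 71 (-3.98), that of Olfr651 to Olfr655 with Trim30d (chr7:104500001-104600000) 507 and 41 (-3.66), and that of Olfr1143 to Olfr1153 (chr2:87800001-87900000) 94 ends in ESC and no called anchor in NCC. Opposite differences were seen from Olfr586 to Olfr592 in the class I window (chr7:103100001-103200000), with 19 and 508 ends (log2 4.71), from Olfr893 to Olfr896-ps1 on chromosome 9, with 57 and 287 (2.30), and from Olfr2 to Olfr17 (chr7:107000001-107100000), with 152 and 515 (1.73). Some of these differences were not seen at this size in the enriched libraries. The bin of Olfr922 to Olfr928-ps1 had 167 and 138 ends in FGFR1 HiChIP and 73 and 37 in CTCF HiChIP, and that of Olfr478 to Olfr482 had 221 and 216, and 61 and 24. The bin of Olfr586 to Olfr592 had 19 and 173 ends in FGFR1 HiChIP, on the same side as in Hi-C.

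**Figure D3:**
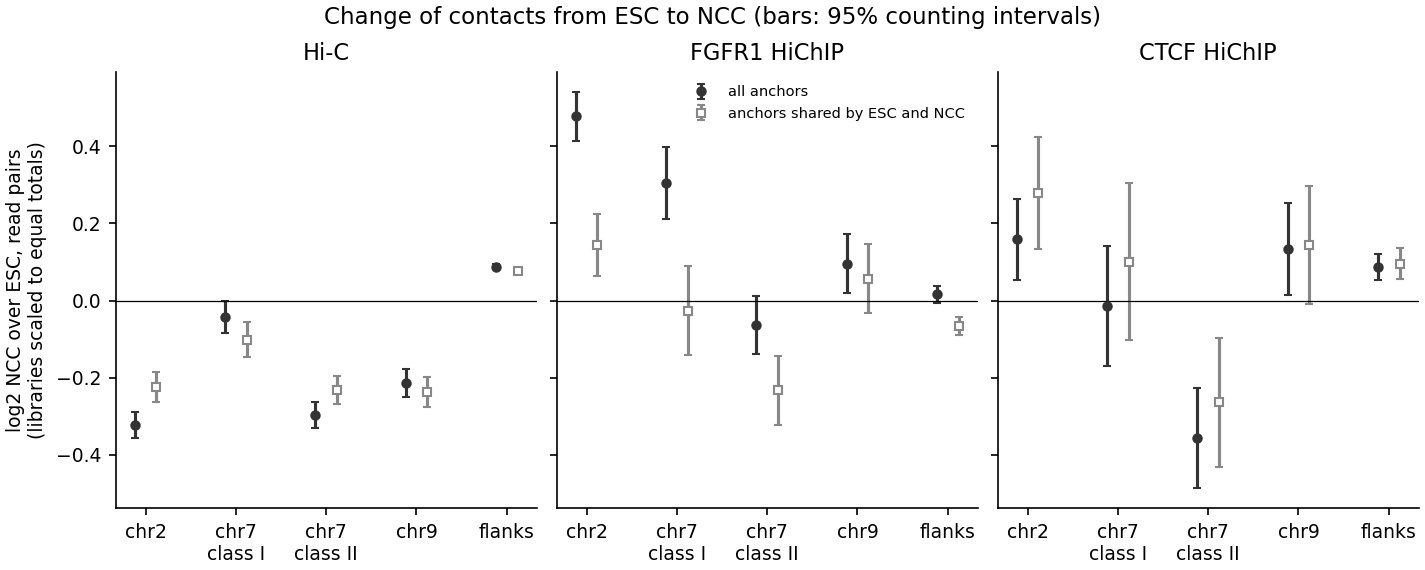
Log2 ratio of NCC over ESC, after scaling to equal library totals, for the 4 receptor windows and their flanks in Hi-C, FGFR1 HiChIP and CTCF HiChIP; filled points use all anchors, open points those shared by ESC and NCC, and bars give 95% counting intervals. With all anchors in Hi-C the windows run from -0.32 (chromosome 2) to -0.04 (class I) while the flanks together are at 0.09, and in FGFR1 HiChIP the chromosome 2 window is at 0.48 with all anchors and 0.14 with shared ones.

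Counted by gene, 145 of the 343 Olfr genes with 50 or more Hi-C ends were lower in NCC by at least 1.5-fold, against 14% of all protein-coding genes, and 74 were higher, against 11.6%. Their median log2 ratio was -0.36, and that of all protein-coding genes -0.03. Of the 40 other protein-coding genes of the windows that reached 50 ends, 15 were lower, 6 were higher, and the median was -0.50. Of 10 such Trim genes 7 were lower and none higher. Trim30a had 582 ends in ESC and 161 in NCC, Trim30d 317 and 78, and Trim6 475 and 307. Vwa5a on chromosome 9 had 561 and 208. The background is of protein-coding genes, while the Olfr genes include pseudogenes. It was not matched for GC content or for the number of ends. In 100 kb bins of the lowest GC group, 43.3% were lower inside the windows and 41.6% outside. Neighbouring genes can share an anchor, so these counts are not independent of each other.

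In FGFR1 HiChIP the windows stood higher in NCC. There were 9994 read pairs in ESC and 14057 in NCC (log2 0.23, 0.19 to 0.26), with the flanks at 0.02. The chromosome 2 window had 0.48 (0.41 to 0.54), class I 0.30 (0.21 to 0.40), chromosome 9 0.10 (0.02 to 0.17) and class II on chromosome 7 -0.06 (-0.14 to 0.01). Anchors covered 16.6% of the windows in ESC and 22.3% in NCC, against 21.9% and 25.8% of the genome. Over anchors shared by both cell types the log2 ratio of the windows was -0.0030 (-0.05 to 0.04), with -0.07 in the flanks and -0.06 over the genome. For the windows together the higher NCC value was thus not seen over shared anchors. The single windows differed, with 0.14 (0.06 to 0.22) for chromosome 2 and -0.23 (-0.32 to -0.14) for class II on chromosome 7. Class I had -0.026 (-0.14 to 0.09) and chromosome 9 0.06 (-0.03 to 0.15). Of the 1053 NCC anchors 482 (45.8%) overlapped one of ESC, against 60.3% in the flanks and 58.6% over the genome. In bins of 100 kb 44 of 125 were higher in NCC by at least 1.5-fold (35.2%, against 23.2% of all bins) and 12 lower (9.6%, against 15.5%), with a median log2 ratio of 0.34 beside 0.05 over all bins. Low-GC bins outside the windows did likewise: in the lowest GC group 42.6% of window bins were higher and 44.1% of the others. By gene, 54 of 119 Olfr genes were higher, against 17.6% of all protein-coding genes, and 21 lower, against 26.9%. Those gene backgrounds were not matched for GC content.

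CTCF HiChIP gave 4571 read pairs in ESC and 3980 in NCC, a log2 ratio of 0.01 (-0.06 to 0.07), with 0.09 in the flanks. The class II window of chromosome 7 was lower in NCC (-0.36, -0.49 to -0.23), and the other windows had 0.16 (chromosome 2), -0.01 (class I) and 0.13 (chromosome 9). Of 104 bins 26 were higher by at least 1.5-fold (25%, against 23.5% of all bins) and 26 lower (against 20.7%). At a 2-fold limit 18 were higher (17.3%, against 11.9%) and 19 lower (18.3%, against 9.23%). Beside bins of the same GC content the windows were lower in NCC. Their summed log2 ratios were 0.056, -0.085, -0.42 and -0.084 in the first to the fourth GC group. Outside the windows they were 0.29, 0.14, 0.059 and -0.019. At 1.5-fold 34.0% of window bins in the lowest group were higher, against 38.5% outside, and 18.8% in the second, against 31.2%. Lower were 24.5% against 19.8%, and 18.8% against 20.6%. By gene only 8 Olfr genes reached 50 ends, of which 1 was higher (20.3% of all protein-coding genes were) and 1 lower (25% were). This library had the fewest reads, with 0.55 ends per kb of the windows in ESC and 0.46 in NCC, so small differences were not detectable at this depth.

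Set against Hi-C of the same cell type, both HiChIP libraries held a larger share of their read pairs in the windows. For FGFR1 HiChIP over Hi-C the log2 ratio reached 0.53 in ESC and 0.99 in NCC, with the flanks at -0.14 and -0.21. For CTCF HiChIP it was 0.53 and 0.77, against -0.17 in the flanks of both. The chromosome 2 window had the largest ratios, 0.72 and 1.52 for FGFR1 and 0.72 and 1.2 for CTCF. In ESC 60 of 126 window bins were higher in FGFR1 HiChIP by at least 1.5-fold (against 32.1% of all bins) and 13 lower (16.1%), and 58 of 125 were higher in CTCF HiChIP (28.8%) and 13 lower (18.5%). In NCC 89 of 128 were higher for FGFR1 (39.6%) and 2 lower (18.6%), and 68 of 124 higher for CTCF (34%) and 17 lower (21%). Bins of the lowest GC group outside the windows had larger log2 ratios still: 1.28 against 0.87 in the windows for FGFR1 in ESC, 1.92 against 1.61 in NCC, and for CTCF 1.07 against 0.96 and 1.57 against 1.37. In the second group, with 39 window bins, the outside bins were also higher. They had 0.69 against 0.41 in the windows for FGFR1 in ESC, 1.01 against 0.92 in NCC, and for CTCF 0.59 against 0.48 and 0.81 against 0.66. In both GC groups above the second that held window bins (13 and 10 bins), the windows lay above the outside bins. For FGFR1 in NCC they were at 0.66 against 0.37 and 0.093 against -0.11, and for CTCF in ESC at 0.37 against 0.23 and 0.092 against -0.034. Enrichment by antibody and the way low-GC DNA was recovered cannot be told apart here.

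Of the CTCF HiChIP anchors in the windows 1.65% held a CTCF match in ESC and 1.86% in NCC, against 2.63% and 2.75% over the genome. Among the 12 leading CTCF anchors (3 per window), 1 did in ESC, at Trim30c, and 1 in NCC, at Ppfibp2. The CTCF anchor with the most ends lay 28024 bp from Syt9 in ESC (77 ends, with no overlapping CTCF anchor in NCC), and on chromosome 9 the leading one covered Scn3b (63 ends in ESC and 33 in NCC). In NCC the leading CTCF anchors covered Trim6 (41 ends), Olfr921 (41 ends) and a position 4219 bp from Olfr874 (41 ends). Over all CTCF anchors of the windows, those with a match held 10.8 ends on average in ESC and those without 9.92, and in NCC 9.92 and 8.62. Over the genome the averages were 22.8 with and 14.2 without a match in ESC, and 20.05 and 12.4 in NCC. The genome-wide difference was not particular to CTCF HiChIP, since ESC Hi-C anchors held 341 ends with and 162 without a match. In the windows only 12 CTCF anchors held a match in ESC and 13 in NCC. The ESC medians were 8 ends in both sets. Per kb of anchor there were 3.55 ends with and 4.11 without a match in ESC, and 3.72 and 3.43 in NCC.

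The leading FGFR1 anchor of the windows in ESC covered Syt9 (96 ends, with no overlapping FGFR1 anchor in NCC), and in NCC it lay 27550 bp from Rbmxl2 (100 ends, 32 in ESC). On chromosome 2 the leading anchor was at Lrrc55 in ESC (89 ends and 28 in NCC) and 231 bp from Olfr1024 in NCC (80 ends, with no overlapping FGFR1 or Hi-C anchor in ESC). Receptor genes were covered by the leading FGFR1 anchors of chromosome 9, Olfr986 in ESC (87 ends and 65 in NCC) and Olfr907 in NCC (74 ends and 61 in ESC). Single long loops could not be ranked, since interactions over 20 kb inside the windows were seen almost always once: of 961 in ESC CTCF HiChIP 38 had a score of 2 or more, and the highest score was 4. In NCC FGFR1 HiChIP 238 of 3480 did, and the highest was 5.

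The contacts that the windows did have stayed more often inside the same window than their totals and distances predicted. Expected counts came from the intra-chromosomal total of each 100 kb bin and the decay of contacts with distance over all chromosomes, leaving out the same and neighbouring bins. Hi-C gave 6077 read pairs against 4418 expected in ESC (ratio 1.38, 95% interval 1.34 to 1.41) and 4669 against 3327 in NCC (1.40, 1.36 to 1.44). Within flanks the ratio was 0.96 and 0.95, between a window and its flanks 0.83 and 0.82, and between the left and right flank, across the window, 1.17 and 1.21. On simulated contacts a block of ordinary bin totals made 3 times as dense returned a ratio of 1.29, which understated the difference in density there. A block both weak and dense, like the windows, was not simulated, so their ratios cannot be turned into densities.

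All 4 windows had ratios above 1. The chromosome 2 window had 1.57 (1.51 to 1.65) in ESC and 1.67 (1.58 to 1.77) in NCC, class I 1.34 (1.25 to 1.44) and 1.53 (1.43 to 1.64), class II on chromosome 7 1.19 (1.14 to 1.25) and 1.11 (1.05 to 1.17), and chromosome 9 1.46 (1.38 to 1.55) and 1.54 (1.45 to 1.63). The class I and class II windows of chromosome 7 also met each other, with 179 read pairs against 133 expected in ESC (1.34, 1.15 to 1.56) and 196 against 114 in NCC (1.72, 1.49 to 1.98). NCC and ESC were compared for these 5 ratios by two-sided exact binomial tests given both expectations, adjusted by Benjamini-Hochberg. The ratio was higher in the NCC library for class I (exact binomial test, adjusted p = 0.0383) and between class I and class II (adjusted p = 0.0428), and the other differences did not pass 0.05 (0.133 for chromosome 2, 0.0585 for class II and 0.205 for chromosome 9). The adjusted p-values take account of read counts in 2 pooled libraries only.

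Ratios were larger at longer distances. In the chromosome 2 window they were 1.21, 1.78, 2.40 and 2.09 in ESC in the distance classes from 200 kb upwards, and 1.32, 1.82, 2.47 and 2.76 in NCC. Pairs of low-GC bins outside the windows had such ratios too, to a lesser extent. With both bins in the lowest GC group, window pairs 500 to 1000 kb apart had 1.77 (1.63 to 1.93) in ESC against 1.44 outside, and pairs 1 to 2 Mb apart 2.33 (2.07 to 2.62) against 1.74. In NCC the values were 1.87 against 1.5 and 2.36 (1.99 to 2.78) against 1.91. With both bins in the second group, the windows had 1.54, 2.41 and 1.78 in ESC at 200 to 500 kb, 500 to 1000 kb and 1 to 2 Mb, against 1.03, 1.28 and 1.45 outside. In HiChIP the ratio within the windows was 1.22 in ESC and 1.2 in NCC for FGFR1, and 1.22 and 1.27 for CTCF.

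**Figure D4:**
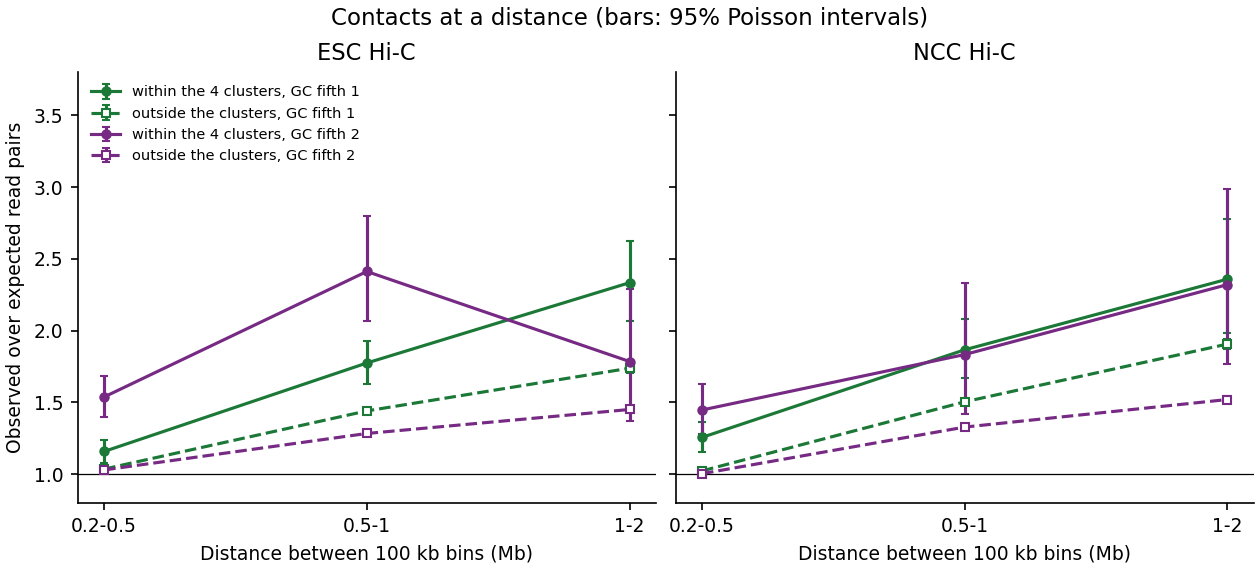
Observed over expected Hi-C read pairs against the distance between 100 kb bins, for bin pairs within the 4 receptor windows (filled points, solid lines) and outside them (open points, dashed lines), with both bins in the lowest (group 1) or the second (group 2) of the 5 GC groups, in ESC and in NCC; bars are 95% Poisson intervals. Window pairs lie above the others of their GC group in each distance class, for example at 1.77 against 1.44 in the lowest group at 0.5 to 1 Mb in ESC. In the second group at 1 to 2 Mb in ESC the interval of the windows includes the value outside.

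Taken over all pairs, Olfr clusters far away on the same chromosome were also met more often than their totals predicted. No pairs of like GC content at these distances were set beside them. Lowest-GC pairs outside the windows were above 1 as well at 1 to 2 Mb, at 1.74 in ESC and 1.91 in NCC. Whether the ratios of the Olfr clusters differ from those of other low-GC stretches was not tested. The 19 other Olfr clusters of the genome with at least 10 genes, 651 genes in all, include 5 on these chromosomes. Contacts of the windows with those on the same chromosome numbered 122 against 78.8 expected in ESC (1.55, 1.29 to 1.85) and 118 against 65.9 in NCC (1.79, 1.48 to 2.14). The class I window and the 25-gene cluster near the end of chromosome 7 (chr7:140159999-140722112) had 20 read pairs against 10.2 expected in ESC (1.97, 1.2 to 3.04) and 24 against 10.4 in NCC (2.30, 1.47 to 3.42). The chromosome 9 window and the 49-gene cluster at chr9:18751507-20336094 had 1.57 (1.14 to 2.10) and 2.21 (1.37 to 3.38). Chromosome 2 and the 46-gene cluster at chr2:111230360-112167997 had 1.91 (0.92 to 3.52) and 2.56 (1.67 to 3.75). The class I window and the 18-gene cluster at chr7:86268487-86697507 had 2 read pairs against 2.82 expected in ESC (0.71) and 3 against 5.86 in NCC (0.51). The class II window of chromosome 7 had 7 with it against 3.81 in ESC (1.84, 0.74 to 3.79) and 9 against 6.94 in NCC (1.30, 0.59 to 2.46). Of the 4 vomeronasal receptor clusters of chromosome 7, 1 spans this Olfr cluster. It was met at 1.72 (1.32 to 2.20) times expectation in ESC and 1.37 (1.01 to 1.82) in NCC. Most of its 63 read pairs in ESC and 48 in NCC fell outside the Olfr cluster. The other 3 together were met at 0.77 (0.37 to 1.42) and 0.87 (0.53 to 1.34).

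Contacts between windows on different chromosomes were too few to show a difference from expectation. There were 11 read pairs against 6.92 expected from the inter-chromosomal totals in ESC (1.59, 0.79 to 2.84) and 7 against 4.98 in NCC (1.41, 0.57 to 2.90). The exact binomial test between both libraries gave p = 1. With each other's flanks the windows had 49 against 62.3 in ESC (0.79, 0.58 to 1.04) and 43 against 62.7 in NCC (0.69, 0.50 to 0.92), an interval that reached 1.05 when expectations came from genome-wide totals. With the other Olfr clusters on other chromosomes they had 47 against 41.3 in ESC (1.14, 0.84 to 1.51) and 45 against 40.1 in NCC (1.12, 0.82 to 1.5). FGFR1 HiChIP gave 16 against 9.75 in ESC (1.64, 0.94 to 2.66) and 25 against 15 expected in NCC (1.66, 1.08 to 2.45). With vomeronasal clusters the Hi-C ratio was 1.10 in ESC and 1.72 (0.96 to 2.84) in NCC, where it was 1.85 (1.03 to 3.04) with expectations from genome-wide totals. Of all Hi-C ends in the windows 11% in ESC and 12.6% in NCC belonged to inter-chromosomal read pairs, against 9.18% and 10.6% in the flanks and 10.1% and 11.6% over the genome.

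The inter-chromosomal contacts of the windows leaned to low-GC partners. With 1 Mb partner bins split into 5 equal groups by GC content, from lowest to highest, the ratios in ESC were 1.56, 1.42, 1.25, 0.99 and 0.76, and in NCC 1.76, 1.42, 1.24, 0.98 and 0.76. Leaving receptor clusters out of the lowest group left 1.57 and 1.76. The lowest-GC bins outside the windows showed the same order, with 1.74, 1.57, 1.21, 0.97 and 0.72 in ESC. The flanks did not, with 1.07, 0.95, 0.98, 1.00 and 1.01. No single partner had an interval above 1 among those named. Of 109 partner bins in ESC and 89 in NCC with at least 10 expected read pairs, the highest ratios were 1.21 and 1.31. They were at chr15:102000001-103000000, which holds the keratin genes Krt8 and Krt18, and chr12:108000001-109000000, with Bcl11b. The intervals of the 3 highest in each cell type included 1. The limit of 10 kept bins with many inter-chromosomal read pairs, with median ratios of 0.64 in ESC and 0.57 in NCC. Only 3 and 2 of them held Olfr genes. Partner bins with fewer expected read pairs were not ranked, so a preferred partner among them could not be seen.

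**Figure D5:**
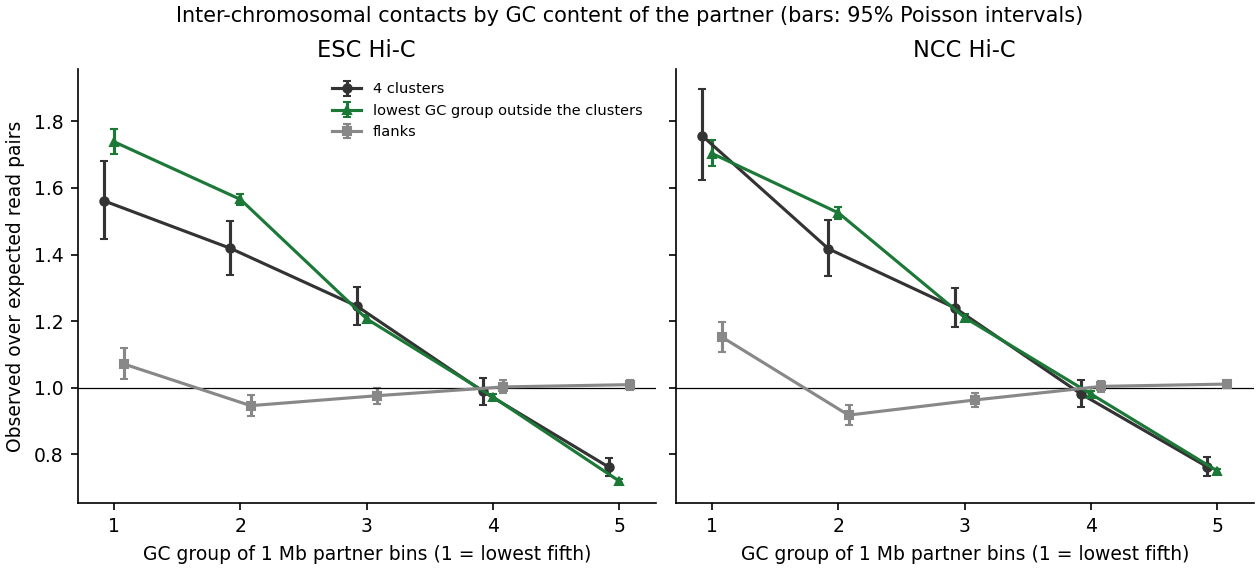
Observed over expected inter-chromosomal Hi-C read pairs with 1 Mb partner bins in 5 groups by GC content, for the receptor windows, the flanks and the lowest-GC bins outside the windows, in ESC and in NCC, with 95% Poisson intervals. In ESC the windows go from 1.56 to 0.76 and the flanks stay between 0.95 and 1.07.

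Differences in contacts between the cell types within windows were also read on the scale of the study's own analysis, which compares 100 kb bin pairs inside 1 Mb bin pairs with a paired test at p under 0.05 without adjustment. Of 24 pairs of identical or adjacent 1 Mb bins, 10 were ESC-favored, against 27.9% of all, and 2 NCC-favored, against 15.5%. By the exact binomial test with adjustment 15 were ESC-favored (42.6% of all) and 3 NCC-favored (27.2%). Of 12 bin pairs farther apart 5 were ESC-favored (4.52% of all) and none NCC-favored (7.5%), and by the binomial test 1 was ESC-favored (0.284%) and none NCC-favored (0.292%). These 12 pairs each lie within a single window, while the background takes farther bin pairs at any distance. The shares are thus not matched for distance. The 100 kb bin pairs are not replicates. None of the 9 bin pairs between the class I and class II windows passed the paired test in either direction.

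Most ESC-favored pairs lay on chromosome 2, whose window is the longest and also gave most of the bin pairs within windows. The 1 Mb bin at chr2:88000001-89000000 had 891 read pairs with itself in ESC and 155 in NCC (log2 -2.55), and with the bin before it 129 and 17 (-2.92). With the 2 bins after it, it had 189 and 72 (-1.42), and 94 and 12 (-2.95). The NCC-favored pairs were the left edge of the chromosome 2 window, around Lrrc55 and Aplnr (1768 read pairs in ESC and 2751 in NCC, log2 0.60), and the first and second 1 Mb bins of the class I window (99 and 322, log2 1.66). In the last Mb of the class II window of chromosome 7 there were 3346 and 2075 read pairs (-0.72). Over chr9:39000001-40000000 the counts were close, with 1747 and 1771 (-0.01).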

How the data were processed

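Hi-C and HiChIP were done by the authors, and they aligned the reads to mm10 and removed duplicates with HiC-Pro, then called anchors for each sample with hichipper at its default settings. The deposited scores are counts of read pairs for each pair of anchors, over both merged replicates, without normalization. Library totals used were 20745652 (ESC) and 21228099 (NCC) read pairs for Hi-C, 2662606 and 3203872 for FGFR1 HiChIP, and 1218098 and 1056437 for CTCF HiChIP, on chromosomes 1 to 19 and X. Between 79.7% and 86.4% of interactions had a score of 1.

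The windows, gene lists and comparisons were chosen with earlier results of these data known. Gene annotation was GENCODE vM21 on GRCm38. Ends per kb is the sum of scores at anchors with their midpoint in a region, divided by its length. Ratios between libraries were scaled to equal totals, with exact (Clopper-Pearson) 95% intervals, and observed over expected ratios have exact Poisson intervals. Bins and genes needed 50 ends in both libraries together and a 1.5-fold difference to be counted. Intra-chromosomal expectations were solved by balancing so that every 100 kb bin total and every distance total was met. This replaced the plain product of totals after that product returned 1.5 for a simulated weak block of no extra density, where balancing returned 0.97. On simulated bins 199 of 200 lowered 2-fold were recovered, and 50 of 22591 unchanged bins were counted. The simulated counts varied by counting error alone, without anchors called in only a single library, so these shares do not carry over to real bins. Among the fifth of bins with the fewest ends outside the windows, 44.2% were lower and 32.9% higher in NCC Hi-C. Named bins are the highest, the lowest and the most different of each window, and named anchors the 3 with the most ends. Python 3.11.15, numpy 2.4.6, pandas 2.3.3, scipy 1.17.1 and matplotlib 3.10.9 were used. A 0 means that no anchor was called, since anchors without interactions are not listed. In these bulk libraries, fewer cells with a contact and a weaker contact in each cell cannot be told apart.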

Additional observations from a re-analysis of the deposited data

How the results depend on the processing

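No paired analysis was possible because the tables hold both replicates merged. The windows stayed below their flanks in all 210 alternatives run over libraries and windows, with log2 ratios from -3.34 to -0.42. For Hi-C in ESC (main -1.85) the ratio was -1.94 without read pairs inside a single anchor, -2.13 with scores of at least 2, -1.58 with each interaction counted once, -1.79 without the 1% of anchors with the most ends, -1.96 per GATC site, -1.76 per kb of unique words and -1.87 with 1 Mb flanks. For NCC (main -2.21) the first 6 gave -2.27, -2.61, -1.85, -2.14, -2.32 and -2.12. The log2 ratio of NCC over ESC in Hi-C (main -0.24) was -0.21 scaled to intra-chromosomal totals, -0.32 scaled to the flanks, -0.21 without read pairs inside a single anchor, -0.37 with scores of at least 2 and -0.21 over shared anchors. For FGFR1 HiChIP (main 0.23) it was 0.13 with scores of at least 2 and changed sign, to -0.0030, over shared anchors; for CTCF HiChIP (main 0.01) it was -0.082 scaled to the flanks, -0.25 with scores of at least 2 and 0.083 over shared anchors. Single windows that changed sign were class I in FGFR1 HiChIP over shared anchors (-0.026), class II (0.085) and chromosome 9 (-0.031) in FGFR1 HiChIP scaled to the flanks, class I in CTCF HiChIP scaled to intra-chromosomal totals (0.026) and over shared anchors (0.10), chromosome 2 in CTCF HiChIP scaled to the flanks (-0.061) and with scores of at least 2 (-0.053), and chromosome 9 in CTCF HiChIP with scores of at least 2 (-0.27). The causes of these changes were not tested.

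Bins of 50 kb gave 90 lower of 238 in Hi-C (37.8%, against 18.8% of all bins) and 50 higher (21%, against 16.1%), and in FGFR1 HiChIP 42 lower of 229 (18.3%, against 21.1%) and 87 higher (38.0%, against 27.6%). A 2-fold limit gave 32 lower of 127 in Hi-C (25.2%, against 11.2%) and 18 higher (14.2%, against 8.06%), and in FGFR1 HiChIP 7 lower of 125 (5.6%, against 5.31%) and 24 higher (19.2%, against 12.6%). Without the 1% of anchors with the most ends, the log2 ratio of HiChIP over Hi-C was 0.46 (FGFR1, ESC), 0.43 (CTCF, ESC), 0.91 (FGFR1, NCC) and 0.72 (CTCF, NCC). The excess of contacts within windows depends on the expectation. From distance alone, which leaves out that the windows have few ends, the ratio was 0.291 in ESC and 0.243 in NCC, and for single windows 0.210 and 0.157 (chromosome 2), 0.218 and 0.240 (class I), 0.514 and 0.357 (class II), 0.328 and 0.304 (chromosome 9) and 0.370 and 0.390 (class I with class II). With the plain product of totals, chosen after seeing the data like the shared anchors, it was 2.75 and 2.82, and windows with their flanks had 1.2 and 1.19. With 50 kb bins it was 1.26 and 1.27, and with each interaction counted once 1.51 and 1.55. The ratios of all windows with each other, with the flanks and with other Olfr clusters on other chromosomes kept their side of 1 under the 3 alternatives run on them, that with the flanks in NCC being 0.778 (0.563 to 1.05) from genome-wide totals. With those totals the flanks with each other had 1.05 in ESC (main 0.898) and 1.13 in NCC (main 0.910, with 1.01 and 1.02 under the other alternatives), chromosome 2 with class I had 1.03 in ESC (main 0.667), and chromosome 2 with chromosome 9 had 1.01 in NCC (main 0.851). The merged tables do not allow leaving out a replicate, and the depth of the CTCF libraries limits what can be seen within single bins.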
